A study of Homo sapiens with 4 samples.

Results

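Centrosomal proteins of the CEP family build, organise and use the centrosome, and the level of every CEP gene was followed in H929 cells. H929 is an established line of human multiple myeloma, a cancer of plasma cells. The family was defined by gene symbol alone: all protein-coding genes whose symbol is CEP followed by a digit. No measured value entered that rule, but the family was selected for study from earlier results of these same data, so its counts are given as descriptions beside those of all genes. It holds 39 of the 63677 genes in the count files, and all 39 passed the filter on low counts. The gene CEP15 was matched through its older symbol, C3orf14.

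Each library held total RNA, depleted of ribosomal RNA, from H929 cells transduced with either a non-silencing shRNA (2 libraries) or an shRNA against ILF2 (2 libraries). An shRNA is a short hairpin RNA that lowers the level of the transcript it matches, and ILF2 encodes a protein of complexes that bind double-stranded RNA. Controls therefore also carried a vector and a hairpin, and the sample titles name H929 for treated and control cells alike. The study's design text calls the replicates independent; what was repeated, the hairpin sequences and the time after transduction are not given in the sources used here, so the p-values rest only on how far these libraries spread, which may be technical. Effects of the hairpin on genes other than ILF2 cannot be told apart from those of ILF2 loss.

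The libraries held 63459322 to 72977082 counted fragments. ILF2 was at 717 and 733 CPM (fragments of a gene per 1000000 fragments counted, with library sizes adjusted by the TMM method) in the non-silencing libraries and at 107 and 114 CPM in the ILF2 shRNA libraries, or 15.3% of the control mean. Summed markers of plasma cells (9 genes) were at 12612 and 12920 CPM in the non-silencing and 14814 and 14935 CPM in the ILF2 shRNA libraries. JCHAIN alone was at 5594 and 5937 CPM in the non-silencing and 7682 and 7594 CPM in the ILF2 shRNA libraries. SDC1 and SLAMF7 were lower in both ILF2 shRNA libraries, XBP1 overlapped between groups, and the other plasma cell markers were higher. Summed markers of B cells, monocytes, erythroid and stromal cells were each under 1 CPM in every library. Of 4 T cell markers, CD3E was at 7.49 to 8.22 CPM in the non-silencing and 16.1 to 17.0 CPM in the ILF2 shRNA libraries, while CD3D, CD3G and CD2 were near 0. Mitochondrial genes took 0.307% to 0.351% of fragments in the non-silencing and 0.463% to 0.516% in the ILF2 shRNA libraries. A fit without mitochondrial and small RNAs is described below, and beyond it the part of that difference in the results was not tested.

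The centrosome is a pair of centrioles, short barrels of microtubules, inside a cloud of pericentriolar material from which microtubules grow. Centrioles are copied once per cell cycle under the kinase PLK4, which CEP152 and CEP192 bring to the centriole wall and which triggers the assembly factors STIL and SASS6. The older centriole carries appendages that dock it to the membrane to form a cilium, while CEP55 leaves the centrosome in mitosis and acts at the midbody, where it recruits the ESCRT machinery that cuts the last bridge between daughter cells. Many of these genes are transcribed with the cell cycle, and genes that peak late in it often carry 2 short promoter elements, the CCAAT box and the cell cycle genes homology region (CHR).

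Promoters of 4 members show what such elements look like at genes that fell (CEP55, CEP152, CEP295) and at the gene that rose most clearly (CEP164). The fallen genes shown each hold both a CHR and a CCAAT box, unlike CEP41 and CEP85L, which also fell. Each is RefSeq sequence on GRCh38.p14 from 250 bases before to 50 bases after the start site, printed 5′ to 3′ on the gene's strand. Capitals mark matches, on either strand, to the CHR (TTTGAA or TTCGAA), the CCAAT box (CCAAT) or an E2F site (TTTCCCGC, TTTCGCGC, TTTGCCGC or TTTGGCGC). The windows lie at chr10:93496362-93496661 (plus strand) for CEP55, chr15:48811020-48811319 (minus strand) for CEP152, chr11:93661432-93661731 (plus strand) for CEP295 and chr11:117327604-117327903 (plus strand) for CEP164.
CEP55: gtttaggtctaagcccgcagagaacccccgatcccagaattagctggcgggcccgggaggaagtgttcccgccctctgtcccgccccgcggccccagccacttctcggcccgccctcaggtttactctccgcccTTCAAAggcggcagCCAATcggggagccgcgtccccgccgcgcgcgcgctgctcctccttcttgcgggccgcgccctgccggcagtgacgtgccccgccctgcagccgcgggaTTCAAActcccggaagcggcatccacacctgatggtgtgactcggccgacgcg
CEP152: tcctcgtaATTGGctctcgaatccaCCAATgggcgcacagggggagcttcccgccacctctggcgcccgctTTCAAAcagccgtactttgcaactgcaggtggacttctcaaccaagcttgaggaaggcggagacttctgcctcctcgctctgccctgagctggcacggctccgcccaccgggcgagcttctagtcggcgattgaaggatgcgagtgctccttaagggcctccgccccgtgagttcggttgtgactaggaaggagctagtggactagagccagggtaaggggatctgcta
CEP295: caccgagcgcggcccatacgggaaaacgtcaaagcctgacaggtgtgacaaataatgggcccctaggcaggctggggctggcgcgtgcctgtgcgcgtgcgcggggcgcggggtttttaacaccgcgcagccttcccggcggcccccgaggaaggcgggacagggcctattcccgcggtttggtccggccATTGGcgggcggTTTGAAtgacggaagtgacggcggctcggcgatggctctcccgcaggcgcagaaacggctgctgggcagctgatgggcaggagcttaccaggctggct
CEP164: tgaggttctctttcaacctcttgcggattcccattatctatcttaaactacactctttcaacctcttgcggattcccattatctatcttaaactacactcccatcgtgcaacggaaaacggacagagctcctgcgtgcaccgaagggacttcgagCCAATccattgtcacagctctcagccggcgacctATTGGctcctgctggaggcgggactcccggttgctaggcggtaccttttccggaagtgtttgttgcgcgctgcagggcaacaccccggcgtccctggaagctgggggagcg

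CEP55 had CHR letters starting 116 and 3 bases before its start site, with a CCAAT box starting 102 bases before it. CEP295 had the CHR starting 48 and a CCAAT box starting 60 bases before its start, and CEP152 had a CHR starting 179 bases before it and CCAAT boxes further upstream. CEP164 held 2 CCAAT boxes and no CHR. The reference table held 42 windows for 33 of the 39 members, and none for CEP78. CHR letters stood in 35.7% of the 42 windows, against 13.7% of the 21280 windows of protein-coding genes and 16.4% of all 35116. E2F letters stood in 16.7%, 4.06% and 3.31%, and the CCAAT box in 47.6%, 34.8% and 34.6%. Of the 6 windows of members that fell, 4 held CHR letters, 4 the CCAAT box and 0 E2F letters, and 2 of these windows belong to CEP85L. In 1 window of CEP85L the CHR letters start 22 bases after the start site, and the other window held no match. CEP41, which also fell, held 2 CCAAT boxes and no CHR, as CEP164 did. Of the 3 windows of members that rose, 0 held CHR letters, 3 held the CCAAT box and 1, that of CEP68, held E2F letters. Matches were counted motif by motif and could overlap. They are descriptions of letters, not of bound sites.

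With ILF2 shRNA, 3 CEP genes rose and 6 fell in edgeR's quasi-likelihood test, at an adjusted p under 0.05 over the 19142 genes tested. CEP78, CEP152, CEP55, CEP41, CEP295 and CEP85L fell, and CEP164, CEP68 and CEP70 rose. Higher members made up 7.69% of the family, against 10.2% of all tested genes and 12.4% of the protein-coding ones; lower members made up 15.4%, against 10.1% and 12.3%. In this fit both shares lie near the background, but the counts depended on the processing and on the libraries used, as described below. After a correction for GC content and length, 14 of the 39 members were lower, beside 2845 of the 19142 tested genes. In that fit 5 members were higher, beside 3030 genes. With the replicate number as a block, 4 members were lower and 1 higher, beside 1297 and 1291 of all genes. In bulk RNA, fewer cells in a stage that transcribes a gene and less RNA per cell cannot be told apart.

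Every change was small. The log2 fold changes ran from -0.35 for CEP78 to 0.31 for CEP126, with a median of -0.09 against 0.00 for all tested genes. On the same scale, the median over the members varied by 0.06 (SD) between replicates. Single members varied more: their median absolute difference between replicates was 0.10 in the non-silencing and 0.14 in the ILF2 shRNA libraries. A change of at least 0.5 on the log2 scale was seen in 0 of 39 members and in 14.8% of all tested genes. Fold changes were below 0 in 29 of the 39 members and in 9612 of the 19142 tested genes. Both ILF2 shRNA libraries lay below both controls in 16 members (41.0%; 28.0% of all tested genes) and above both in 8 (20.5%; 28.5% of all tested genes). Before adjustment, 12 members with a lower level and 4 with a higher one had p under 0.05, beside 2953 and 2971 of the 19142 tested genes. DESeq2 called 5 lower and 2 higher members after adjustment, beside 1261 lower and 1363 higher of all genes.

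**Figure D1:**
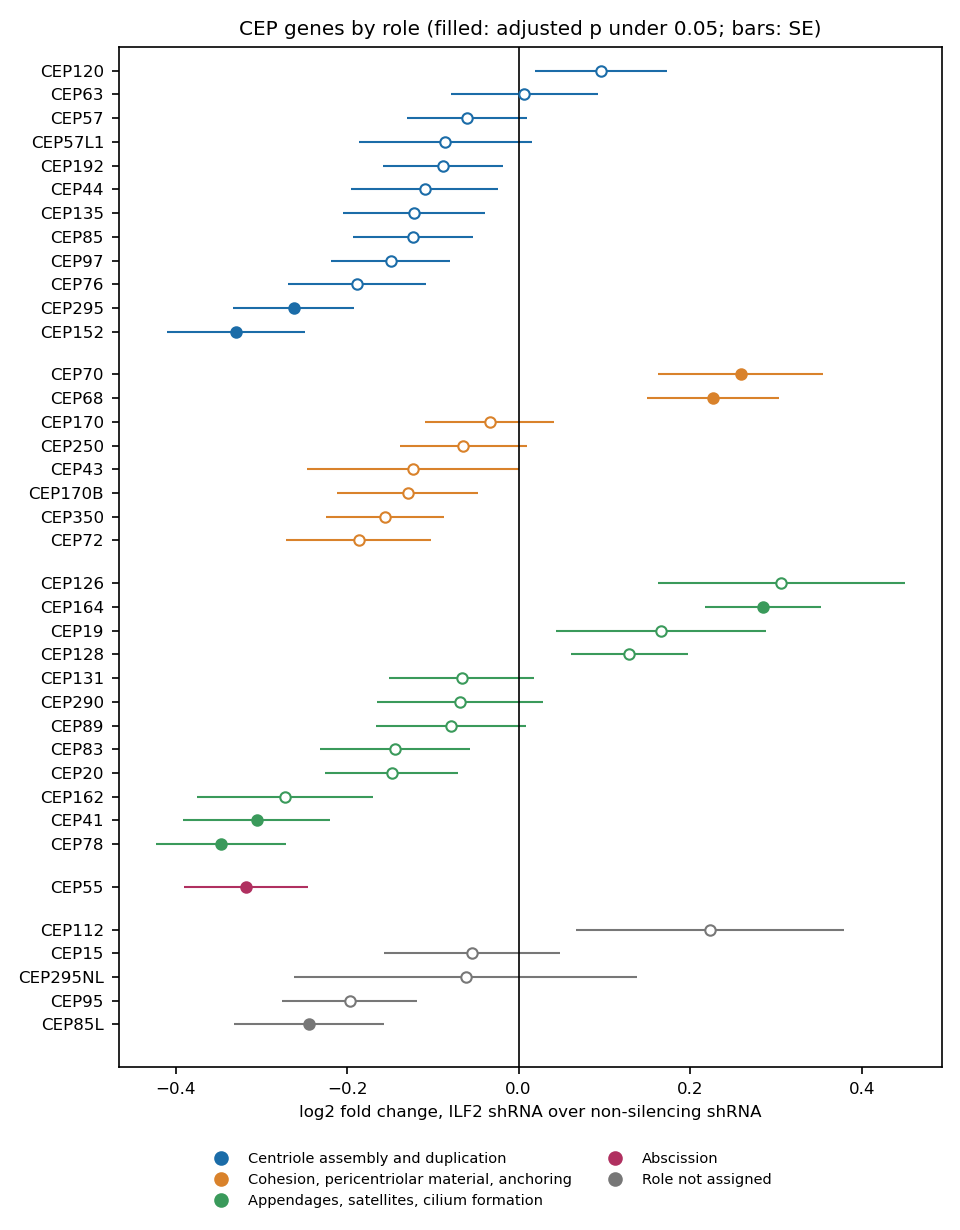
Log2 fold change of 38 of the CEP genes (x axis) with its SE (bar), grouped by role; filled points passed edgeR's test at an adjusted p under 0.05. Most points lie left of 0, all lie between -0.35 and 0.31, and the 3 filled points right of 0 are CEP70, CEP68 and CEP164.

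Of the 12 members that serve centriole assembly and duplication, 2 fell (16.7%, near the 12.3% of protein-coding genes) and 0 rose. The median of their log2 fold changes was -0.12. CEP152 (ENSG00000103995, GRCh37 chromosome 15, 49005125 to 49103343, minus strand), the scaffold that recruits PLK4, was at 38.3 and 43.2 CPM in the non-silencing libraries and at 34.9 and 30.0 CPM in the ILF2 shRNA libraries. The groups did not overlap, but the replicates inside each group lay further apart than the nearest values of the groups. CEP152 fell by 0.33 on the log2 scale (SE 0.08), to 79.6% of the control level, with an edgeR adjusted p = 0.0016. That edgeR adjusted p became 0.16 when non-silencing replicate 2 was left out and 0.062 when ILF2 shRNA replicate 2 was, which ended the call.

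CEP295 (ENSG00000166004, chromosome 11, 93394805 to 93463522, plus strand), needed for a new centriole to become a centrosome, was at 131 and 144 CPM in the controls and at 121 and 109 CPM with ILF2 shRNA. Again every ILF2 shRNA value was below every control value. CEP295 fell by 0.26 on the log2 scale (SE 0.07), with an edgeR adjusted p = 0.0042. Leaving out non-silencing replicate 2 (adjusted p = 0.27) or ILF2 shRNA replicate 2 (adjusted p = 0.078) ended the call.

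The other 10 genes of this role did not pass. CEP63, which forms a complex with CEP152, had 16.7 and 16.8 CPM in the controls and 17.1 and 16.5 CPM with ILF2 shRNA, and its log2 fold change of 0.01 had an SE of 0.09 and an edgeR adjusted p = 0.97. CEP192, which shares the PLK4 recruiting role with CEP152, had one of -0.09 (SE 0.07), with both ILF2 shRNA values just below both controls. Whether CEP152 differed from CEP63 or CEP192 in its response was not tested. CEP135, a component of the centriole's cartwheel, had a log2 fold change of -0.12, CEP97, which with CCP110 caps centriole ends, one of -0.15, and CEP76, which limits repeated duplication, one of -0.19 (edgeR adjusted p = 0.09). CEP85, a partner of STIL, had one of -0.12. CEP44 had -0.11, CEP57L1 -0.09 and CEP57 -0.06, and CEP120, which helps centrioles elongate, had 0.10. CEP57 was the most abundant of this role per exon length.

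CEP55 (ENSG00000138180, chromosome 10, 95256389 to 95288849, plus strand), the one member of the abscission role, was the most abundant CEP gene per exon length. It was at 92.1 and 96.7 CPM in the non-silencing libraries and at 81.5 and 69.9 CPM in the ILF2 shRNA libraries. The ILF2 shRNA replicates differed from each other more than the controls did, and both were below them. CEP55 fell by 0.32 on the log2 scale (SE 0.07), to 80.2% of the control level, with an edgeR adjusted p = 0.00068. Leaving out non-silencing replicate 2 moved the adjusted p to 0.059. The CHR letters shown above in its promoter start 3 and 116 bases before the start site. Their part in the fall of CEP55 was not tested.

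Appendages, satellites and cilium formation were the role of 13 members, of which 2 fell (15.4%) and 1 rose (7.69%), near the 12.3% and 12.4% of protein-coding genes. Here the median of the log2 fold changes was -0.07. CEP78 (ENSG00000148019, chromosome 9, 80850978 to 80894606, plus strand), a centriolar protein whose loss causes a cone-rod dystrophy with hearing loss, was at 49.4 and 52.2 CPM in the controls and at 42.5 and 37.4 CPM with ILF2 shRNA. The groups were clearly apart. The log2 fold change of CEP78, -0.35 with an SE of 0.08 and an edgeR adjusted p = 0.00041, was the most negative of the family. Its call held in all 13 alternative settings, with adjusted p up to 0.042.

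CEP41 (ENSG00000106477, chromosome 7, 130033612 to 130082274, minus strand), a Joubert syndrome gene whose product acts in tubulin glutamylation of cilia, was at 18.1 and 18.6 CPM in the controls and at 14.9 and 14.8 CPM with ILF2 shRNA. Replicates were close together in both groups. CEP41 fell by 0.31 on the log2 scale (SE 0.09), with an edgeR adjusted p = 0.0066. The adjusted p was 0.099 once non-silencing replicate 2 was left out, which ended the call.

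CEP164 (ENSG00000110274, chromosome 11, 117185273 to 117283984, plus strand), a distal appendage protein that recruits the kinase TTBK2 at the onset of cilium formation, went the other way. It was at 136 and 130 CPM in the controls and at 158 and 166 CPM with ILF2 shRNA. Every ILF2 shRNA value exceeded every control value. CEP164 rose by 0.29 on the log2 scale (SE 0.07), to 122% of the control level, with an edgeR adjusted p = 0.0012. This call too ended when non-silencing replicate 2 was left out (adjusted p = 0.12).

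The remaining appendage and cilium genes did not pass. CEP83 and CEP89, which like CEP164 belong to the distal appendages, had log2 fold changes of -0.14 and -0.08, and the groups overlapped for CEP83. CEP162, which tethers the axoneme to the transition zone, had -0.27 and lay just outside the threshold (edgeR adjusted p = 0.0504). CEP162 was called in 6 of 13 alternative settings, but not in DESeq2 (adjusted p = 0.18) or limma-voom (adjusted p = 0.061). CEP290, a transition zone protein mutated in several ciliopathies, had -0.07 with overlapping groups, CEP131 of the satellites -0.07 and CEP20, also of the satellites, -0.15. CEP128 of the subdistal appendages and CEP19 had 0.13 and 0.17, each with both ILF2 shRNA libraries above both controls. CEP126 had the highest value of the family, 0.31, on 197 to 266 fragments per library and with overlapping groups. CEP128 was the third most abundant CEP gene per exon length, at 162 and 171 CPM in the controls and 190 and 174 CPM with ILF2 shRNA.

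Cohesion, pericentriolar material and microtubule anchoring were the role of 8 members. Of these 2 rose and 0 fell, beside 10.2% and 10.1% of all tested genes, although the median of their log2 fold changes was -0.09. CEP68 (ENSG00000011523, chromosome 2, 65283500 to 65314138, plus strand), part of the fibre that links the centrioles, was at 30.9 and 30.1 CPM in the controls and at 35.8 and 35.6 CPM with ILF2 shRNA. Replicates were close and the groups apart. CEP68 rose by 0.23 on the log2 scale (SE 0.08), with an edgeR adjusted p = 0.027. Its call ended whichever library was left out. The edgeR adjusted p was 0.16 or 0.26 with non-silencing replicate 1 or replicate 2 left out, and 0.054 or 0.053 with ILF2 shRNA replicate 1 or replicate 2 left out.

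CEP70 (ENSG00000114107, chromosome 3, 138213186 to 138313380, minus strand), which binds gamma-tubulin, was at 9.49 and 10.7 CPM in the controls and at 13.0 and 11.2 CPM with ILF2 shRNA. The closest values of the groups nearly met. CEP70 rose by 0.26 on the log2 scale (SE 0.10), with an edgeR adjusted p = 0.047. The call held in 5 of 13 alternative settings. DESeq2 gave an adjusted p = 0.16, limma-voom 0.057, and edgeR with upper-quartile factors 0.065 and with no filter on low counts 0.064. In edgeR the adjusted p was 0.45 or 0.052 when non-silencing replicate 1 or replicate 2 was left out, and 0.40 when ILF2 shRNA replicate 1 was.

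CEP250, the anchor of the linker fibre to which CEP68 belongs, had a log2 fold change of -0.06 (SE 0.07) with overlapping groups. CEP350, which anchors microtubules together with CEP43, was at 230 and 248 CPM in the controls and at 229 and 200 CPM with ILF2 shRNA, or -0.16 on the log2 scale, with an edgeR adjusted p = 0.11. CEP43 had -0.12 on 270 to 375 fragments. On its exons 8.19% of bases are shared with another gene on the same strand, where the authors' counting can lose fragments, so its level is uncertain. CEP170 had -0.03 and its paralogue CEP170B -0.13. CEP170 also has a transcribed pseudogene, CEP170P1, with 69 to 97 fragments per library. Fragments that fit both equally well are taken to be left out of both counts. CEP72, which recruits gamma-tubulin complexes, had -0.19 (edgeR adjusted p = 0.12). Chromosome 5, which carries CEP72 and CEP120, had a median log2 fold change of 0.15 over its 900 tested genes. Of these, 29.7% were called higher and 3.33% lower, and the part of that shift in the values of CEP72 and CEP120 was not tested.

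Of the 5 members given no role, CEP85L fell. CEP85L (ENSG00000111860, chromosome 6, 118781935 to 119031238, minus strand), a gene mutated in a form of lissencephaly, was at 17.8 and 19.0 CPM in the controls and at 16.5 and 14.5 CPM with ILF2 shRNA. The groups were apart by less than the spread inside the ILF2 shRNA group. CEP85L fell by 0.24 on the log2 scale (SE 0.09), with an edgeR adjusted p = 0.038. DESeq2 gave an adjusted p = 0.10. Leaving out non-silencing replicate 1, non-silencing replicate 2 or ILF2 shRNA replicate 2 gave edgeR adjusted p of 0.087, 0.33 and 0.35. CEP95 had -0.20 (edgeR adjusted p = 0.067), CEP15 -0.05, CEP112 0.22 on 139 to 177 fragments and CEP295NL -0.06 on 76 to 109. As for CEP43, exon bases are shared with another gene on the same strand, 7.18% for CEP295NL and 2.535% for CEP112, so their levels are uncertain too.

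**Figure D2:**
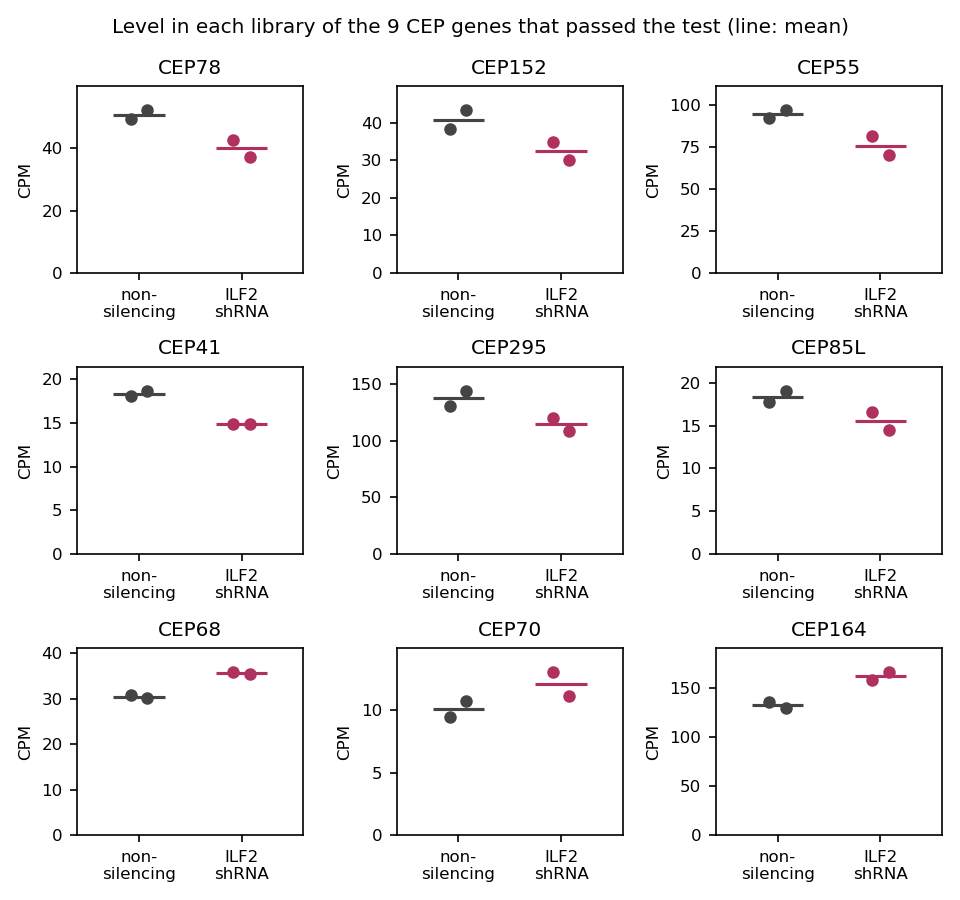
CPM (y axis, from 0) in each of the 2 non-silencing and 2 ILF2 shRNA libraries for the 9 CEP genes that passed the test; points are libraries and lines are group means. In each panel the points of 1 group lie wholly above those of the other, and CEP164, for example, goes from 136 and 130 to 158 and 166 CPM.

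Levels differed between members far more than between groups. Per kilobase of summed exon length, CEP55 (26.0 CPM per kilobase, mean of 4 libraries), CEP57 (22.6) and CEP128 (18.3) were highest, followed by CEP85 (17.9) and CEP97 (17.1). CEP112 (0.28), CEP43 (0.305) and CEP126 (0.393) were lowest. The family median of 3.86 CPM per kilobase lay near the 4.47 of tested protein-coding genes. CEP57 was at 155 and 172 CPM in the controls and at 165 and 149 CPM with ILF2 shRNA, with overlapping groups. Exon length is summed over all annotated isoforms, so genes with long isoforms that these cells do not use appear lower.

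**Figure D3:**
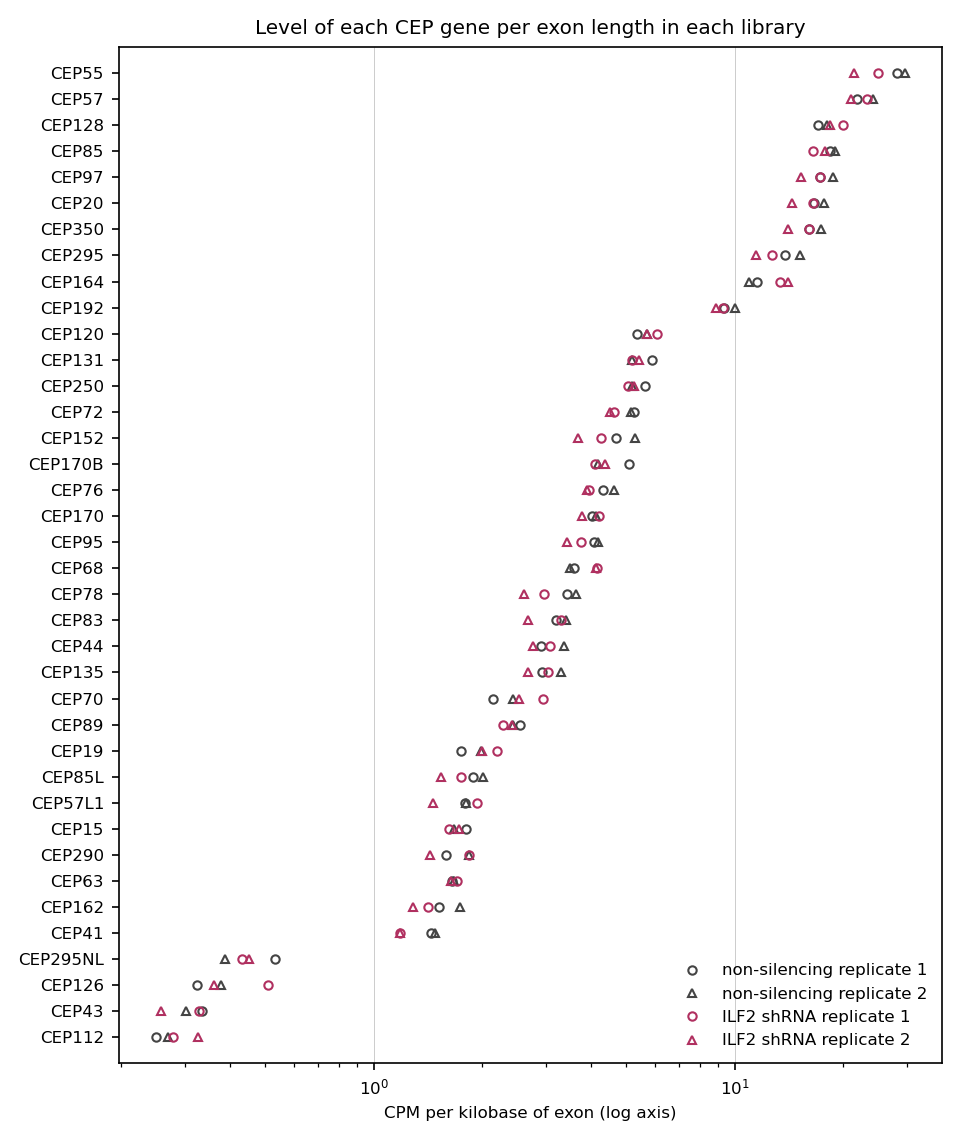
CPM per kilobase of exon (log x axis) of 38 CEP genes, ordered by their mean, in each library (grey for non-silencing, red for ILF2 shRNA; circles for replicate 1, triangles for replicate 2). Levels span from 0.28 for CEP112 to 26.0 for CEP55, and the 4 libraries of a gene lie close together beside that range.

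The CEP genes are long and poor in G and C. Their median exon length was 7876 bases, against 4888 for tested protein-coding genes, and their median exon GC content 41.1% against 48.4%. Replicate differences followed GC content across the 39 members: Pearson's r with GC was 0.76 for non-silencing replicate 1 minus replicate 2, and -0.60 for ILF2 shRNA replicate 1 minus replicate 2. For the log2 fold change it was 0.14, and for log2 fold change against log2 exon length -0.07. These are descriptions over genes that share the same 4 libraries. CEP170B, at 66.2% GC, was at 36.6 and 30.2 CPM in the 2 controls, and CEP135, at 37.2%, at 25.2 and 28.5 CPM. A smooth correction per library for GC and length gave 14 lower and 5 higher members, among them all 9 called without it. Over all 19142 tested genes it gave 2845 lower and 3030 higher, against 1925 and 1960 without it.

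**Figure D4:**
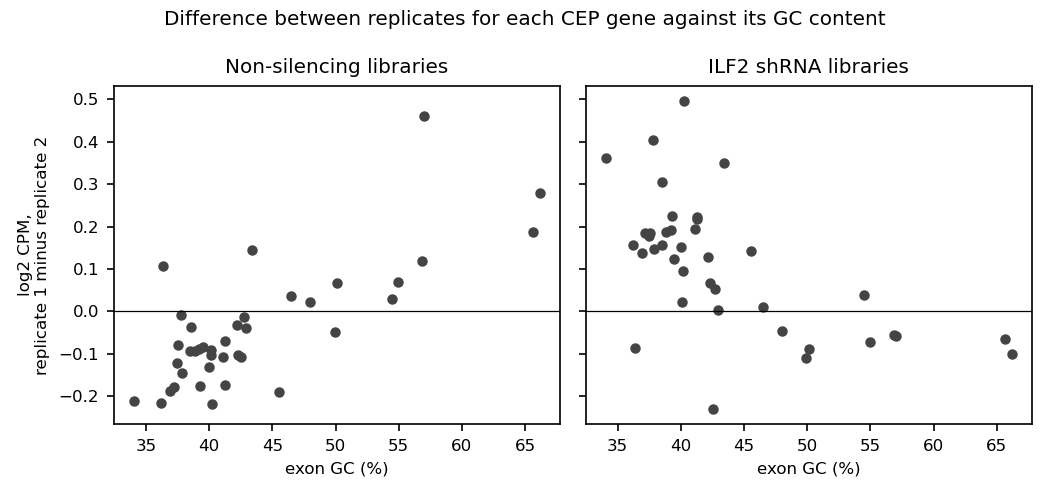
Log2 CPM of replicate 1 minus replicate 2 (y axis) against exon GC content in percent (x axis) for the 39 CEP genes in the non-silencing (left) and ILF2 shRNA (right) libraries; each point is a gene. The points rise with GC in the left panel (r = 0.76) and fall with it in the right one (r = -0.60).

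Which libraries were used mattered. Without non-silencing replicate 2, 1 member fell (CEP78) and 0 rose, with 1070 of all genes lower and 1029 higher, against 1925 and 1960 with all libraries. Leaving out non-silencing replicate 1 gave 6 falls and 1 rise, with 1073 of all genes lower and 1070 higher. Leaving out ILF2 shRNA replicate 1 gave 13 falls and 1 rise, with 1822 lower and 1899 higher. With ILF2 shRNA replicate 2 left out there were 3 of each, with 1489 lower and 1565 higher. The median of the family stayed below 0 in these 4 fits, from -0.13 to -0.06.

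Other centrosome and midbody genes, from lists that hold no CEP symbol, were read from the same fit. Centriole duplication was served by 22 of them: 7 fell (31.8%), 3 rose (13.6%) and the median was -0.09 on the log2 scale. The shares to set beside this and the next 4 lists are those of all tested genes, 10.1% lower and 10.2% higher, and of protein-coding ones, 12.3% and 12.4%. The 7 that fell were PLK4, TEDC1, SASS6, STIL, TEDC2, RTTN and CENPJ, and the 3 that rose were POC5, POC1B and CETN2. All of these were named from their values, PLK4, TEDC1 and SASS6 because their adjusted p were the smallest of the list. POC5 lies on chromosome 5, where 29.7% of tested genes were called higher and 3.33% lower. PLK4, the kinase that CEP152 recruits, was at 49.5 and 52.6 CPM in the controls and at 40.4 and 36.9 CPM with ILF2 shRNA, or -0.40 on the log2 scale (SE 0.08), with an edgeR adjusted p = 3.6e-05. SASS6, the cartwheel protein, had -0.42 and TEDC1, a partner of the unusual tubulins of centrioles, -0.41. Of this list 4 fell when non-silencing replicate 2 was left out. The number that rose was 0 when either non-silencing library was left out and 1 when ILF2 shRNA replicate 1 was.

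Of 16 genes of the pericentriolar material, 6 fell (37.5%, against 10.1% of all tested genes) and 0 rose, with a median of -0.11. MZT2A and MZT2B, near-identical subunits of the gamma-tubulin complex whose separate levels are uncertain, had -0.56 and -0.45, and the mitotic kinase gene PLK1 had -0.26 (edgeR adjusted p = 0.0042). When non-silencing replicate 1 was left out, 2 of the list fell, and PLK1 missed the threshold (edgeR adjusted p = 0.26). Of 14 linker and satellite genes, 4 fell (28.6%, against 10.1% of all tested genes) and 0 rose. PCM1, the scaffold of the satellites, fell and was at 285 and 320 CPM in the controls and 246 and 216 CPM with ILF2 shRNA (log2 fold change -0.39, edgeR adjusted p = 2.2e-05). TBC1D31 had -0.45, and CNTLN, a linker protein that binds CEP68, had -0.47 while CEP68 rose by 0.23.

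Of 23 tested appendage and transition zone genes, 3 rose and 3 fell (13.0% each), with a median of -0.03. These shares are near the 12.4% and 12.3% of protein-coding genes. NINL, a ninein-like protein, rose by 0.48, and SCLT1, which with CEP164 is a distal appendage protein, and B9D2 of the transition zone had -0.33 and -0.44. SCLT1 missed the threshold when non-silencing replicate 2 (edgeR adjusted p = 0.12) or ILF2 shRNA replicate 2 (0.11) was left out. B9D2 missed it in DESeq2 (adjusted p = 0.067) and when replicate 1 of the controls (edgeR adjusted p = 0.075) or of ILF2 shRNA (0.097) was left out. The number that fell was 1 when either non-silencing library or ILF2 shRNA replicate 1 was left out, and 1 rose when non-silencing replicate 1 was. Of 21 midbody and abscission genes, 6 fell (28.6%, against 10.1% of all tested genes) and 0 rose, with a median of -0.06. ANLN, the anillin gene of the cleavage furrow, had -0.52, the spindle midzone gene PRC1 -0.32 and the kinase gene AURKB -0.34, beside -0.32 for CEP55. With either non-silencing library left out, 4 of this list fell.

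**Figure D5:**
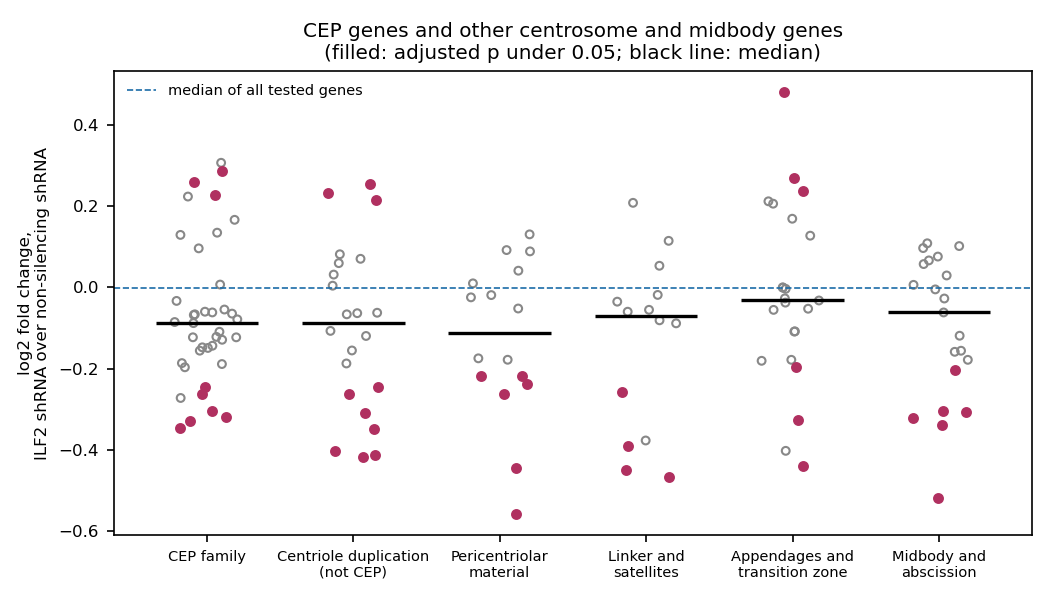
Log2 fold change (y axis) of the CEP genes and of 5 lists of other centrosome and midbody genes; points are genes, filled where the adjusted p was under 0.05, black lines are list medians and the dashed line is the median of all tested genes. All 6 medians lie below the dashed line, from -0.11 for the pericentriolar material to -0.03 for appendages and the transition zone.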

How the data were processed

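Total RNA of 4 libraries was measured, 2 per group, with groups and replicate numbers as the sample titles give them. The authors deposited raw counts of fragments per gene, made with featureCounts (Subread 1.4.6-p2) from paired fragments on the reverse strand over the exons of Ensembl release 75 on GRCh37, per the file headers. STAR 2.3.0 and SAMtools 0.1.19 stand in the submitters' processing notes, while the design text names another aligner. Fragments that fit several genes or places are taken to be left out, as is that program's default. Of 63677 genes, 55665 were matched to a GENCODE symbol of GRCh37 by Ensembl ID.

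Counts were tested in edgeR 4.0.16 (R 4.3.3) with TMM factors (0.970 to 1.02), filterByExpr (minimum count 10), robust dispersions and the quasi-likelihood test, two-sided, on a model of group alone. P-values were adjusted by Benjamini-Hochberg over the 19142 genes kept, and a gene was called under 0.05. The SE was obtained from the F statistic. The procedure was also run on simulated counts whose changes were all larger than any CEP change here. That run does not speak to how well changes of the CEP genes' size are found. With 2 residual degrees of freedom it leans on the spread shared across genes (biological coefficient of variation 5.38%); depth gives counting error in addition, largest for members of a few CPM.

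The members, roles and lists were chosen with earlier results of these data known. Named were ILF2, every member, and up to 3 genes per list with the smallest adjusted p; 1 member is counted with the family and not reported here by itself. Alternatives were DESeq2 1.42.0, limma-voom (limma 3.58.1), other size factors and filters, mitochondrial and small RNAs left out, a GC and length correction (mgcv 1.9.3), the replicate number as a block, and each library left out. Promoter windows came from RefSeq's GRCh38.p14 table and were used for letters only, with no coordinates moved between builds.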

Additional observations from a re-analysis of the deposited data

How the results depend on the processing

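Among the CEP genes, 5 were higher and 14 lower after the GC and length correction (5875 of all genes called), and 1 higher and 4 lower with the replicate number as a block (2588 of all genes called). Under the block CEP295, CEP85L, CEP68, CEP70 and PLK1 missed the threshold, with edgeR adjusted p from 0.056 to 0.15; replicate deviations did not correlate across groups by number (r = -0.02 over genes), so the numbers were not taken to pair libraries. The block's calls of other genes were 0 higher for centriole duplication, 2 lower for the pericentriolar material and 1 higher for appendages and the transition zone. The correction gave 1 higher gene for the pericentriolar material, 1 for linkers and satellites and 6 for appendages and the transition zone. DESeq2 called 2624 genes in all. With mitochondrial and small RNAs left out, 1940 genes were higher and 1942 lower. Of the CEP genes, 3 were higher and 7 lower in that fit, and the CEP median was -0.09. With 1 library left out, all genes called numbered 2099 to 3721, CEP genes higher 0 to 3 and lower 1 to 13, and the CEP median ran from -0.13 to -0.06. In the same fits, centriole duplication had 0 to 2 higher and 4 to 8 lower, the pericentriolar material 2 to 7 lower, linkers and satellites 0 to 1 higher and 3 to 4 lower, appendages and the transition zone 1 to 3 higher and 1 to 3 lower, and the midbody 4 to 6 lower. The sign of 11 members that were not called turned in some setting. With 1 library left out their log2 fold changes ran from -0.30 to 0.0023 for CEP83, -0.26 to 0.016 for CEP170B, -0.30 to 0.045 for CEP43, -0.21 to 0.0023 for CEP44, -0.30 to 0.11 for CEP57L1, -0.26 to 0.10 for CEP290, -0.16 to 0.030 for CEP131, -0.27 to 0.19 for CEP295NL, -0.13 to 0.015 for CEP57, -0.11 to 0.043 for CEP170 and -0.017 to 0.033 for CEP63. CEP131 was at 0.00027 after the GC and length correction and CEP63 at -0.0011 with no filter on low counts. The cause of these shifts was not tested. Where a library was left out, the lone library of its group was assumed to vary like the other group. At 76 to 375 fragments per library, the levels of CEP295NL, CEP112, CEP126, CEP19 and CEP43 carried the largest counting error.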

Other observations

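Protein-coding neighbours that start head to head with a CEP gene, on the other strand and within 1000 bases of its 5′ end in the deposited annotation, were looked up after the members' values had been seen. There were 9 such members, and 8 of their neighbours were tested. SESN1, a stress-response gene that starts 291 bases from CEP57L1, was the 1 neighbour that passed (log2 fold change 0.36, SE 0.08; edgeR adjusted p = 0.0007), beside -0.09 for CEP57L1. None of the 9 CEP genes that passed the test had such a neighbour. TMTC3, 80 bases from CEP290, had -0.24 (edgeR adjusted p = 0.056) beside -0.07. FAAP24, FBXO8, ANAPC13, FAM76B and SDCCAG8 had values from -0.20 to 0.13. In 4 of the 8 pairs both genes had the same sign.

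Features named after a CEP gene that are not protein-coding were scarce. CEP72-DT had 1 to 6 fragments per library, CEP192-DT 0 to 2, CEP250-AS1 2 to 14 and CEP164P1 0 to 3. CEP19P1 had 0 fragments in all 4 libraries. CEP57L1P1, a processed pseudogene, had 97 and 106 fragments in the controls and 89 and 90 with ILF2 shRNA, against 648 to 851 for CEP57L1 itself.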
